A study of Mus musculus with 6 samples.

Results

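Cycling basal urothelial cells were picked out of single-cell transcriptomes from the bladder mucosa of mice, and they were chosen by the measured UMI counts of the genes named here. A cell was taken as urothelial when it had more than 500 genes, at least 20 UMIs (unique molecular identifiers, 1 per captured mRNA) over 6 keratin genes (Krt5, Krt7, Krt8, Krt15, Krt18 and Krt19), more than 2 times as many of these as of 4 stromal genes, and no UMI of the leukocyte gene Ptprc or the endothelial gene Pecam1. It was taken as basal when Krt14, Col17a1 and Dlk2 together gave at least 2 UMIs and more than the superficial genes Acer2 and Krt20, and as cycling when Top2a, Mki67, Birc5 and Ube2c together gave at least 3. Of 56629 cells in all 6 libraries, 1328 passed the basal gate and 259 of these were cycling. The numbers were 13 and 4 cells in the healthy libraries 1 and 2, 187 and 41 in acute 1 and 2, and 10 and 4 in chronic 1 and 2. They were compared with the 1069 non-cycling cells of the same gate, with 1055 cycling urothelial cells that carried superficial markers (at least 2 UMIs of Acer2 and Krt20 and more than of the basal genes), and with 816 other cycling urothelial cells, which met neither the basal nor the superficial rule.

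The urothelium is a layered epithelium of basal, intermediate and superficial (umbrella) cells. Basal cells sit on the basement membrane, hold on to it through integrins and hemidesmosomes, and express Krt5 and, in a subset, Krt14, whereas superficial cells carry the uroplakins that seal the bladder. The tissue is nearly quiescent in health and divides after injury. Cyclophosphamide (CPP), a DNA-alkylating chemotherapeutic whose metabolites reach the bladder with the urine, is a usual way to cause that injury, and DNA damage is known to activate the transcription factor p53 and, through it, inhibitors of the cell cycle and genes of cell death.

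All mice were wild-type C57BL/6 animals of 8 weeks. Healthy mice received no CPP, acutely injured mice received 1 injection at 150 mg/kg and were collected 48 h later, on day 2, and chronically injured mice received 4 injections at 75 mg/kg and were collected on day 11, 48 h after the last. Each condition had 2 libraries. The paper reports more mice than that per condition, but not how they were shared among the libraries. A library may thus hold several animals, and permutation p-values measure the spread between such libraries. Tests across genes between classes use the spread of the class differences over libraries, moderated over all genes. Levels are given as CPM, the UMIs of a gene per 1000000 UMIs summed over the cells of a class in a library, and per-library values follow the order healthy 1, healthy 2, acute 1, acute 2, chronic 1 and chronic 2 unless said otherwise.

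The libraries held 5348 to 15062 barcodes and 54604109 to 111985678 UMIs, and no barcode was shared between members of different libraries. The members gave very unequal sums: 1 UMI was worth 8.86, 68.1, 0.825, 3.40, 28.5 and 39.4 CPM, and a count of 0 in healthy 2 therefore allowed a level of up to 204 CPM (3 counts, counting error only). Healthy 2 and chronic 2, with 4 members each, were left out of the tests across genes, which used the 4 libraries with at least 10 members. These small sums also carried RNA of other cells. The 5 NK and T cell markers summed to 2995 CPM in the members of healthy 2, against 0 to 39.4 CPM in those of the other 5 libraries, the 12 macrophage markers to 1157 CPM against 39.6 to 228, and the 12 stromal markers to 4576 CPM in chronic 2 against 543 to 1393. Scrublet doublet calls were made for 12 members of acute 1 and 1 of acute 2. The median depth of the members lay between 5345 UMIs (chronic 1) and 14812 UMIs (healthy 1).

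The genes of the gate are described first. Krt14, Col17a1 and Dlk2 make up the basal gate, so their presence does not check the label. Krt14 was found in 67.6% of the members and 43.4% of the non-cycling basal cells, Col17a1, a hemidesmosomal collagen, in 70.7% and 71.3%, and Dlk2 in 29.0% and 48.5%. Background of Krt14 was read in cells with a Ptprc UMI and fewer than 20 UMIs over the keratins of the urothelial gate. There were 25 to 157 such cells per library, with median depths of 2855 to 5484 UMIs. Krt14, which they should lack, was found in 0% to 0.952% of them. Ube2c was found in 9.09% to 23.3%, Birc5 in 9.09% to 20%, Top2a in 9.52% to 20% and Mki67 in 0% to 15.2%. Ptprc cells with more keratin RNA were thus left out, and Krt14 in them was not tested. Ube2c, which marks mitotic cyclins for degradation, was found in 93.8% of the members, Birc5 (survivin, of the chromosomal passenger complex) in 78.4%, Top2a (topoisomerase II alpha) in 75.7% and Mki67 in 66.0%. These genes chose the cells, and their levels are given only as a description. At the edges of the rule, 22 basal-gate cells had a proliferation sum of 2 and were counted as non-cycling, and 19 had 3 and were counted as members. A sum of 0 was found in 949 cells and a sum of 5 or more in 227. At the basal edge, 106 members had exactly 2 basal UMIs, and 159 cycling urothelial cells had only 1 and were not taken. Of the 259 members, 85 also had a UMI of Acer2 or Krt20.

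Further markers of identity were read in the same cells, and they are given as a description too. Krt5 was found at 789, 1838, 1275, 1104, 1397 and 1026 CPM in the members and at 1018 to 1309 CPM in the non-cycling basal cells, against 160 to 281 CPM in the cycling cells with superficial markers (the keratin sum of the urothelial gate includes it). Trp63, the master transcription factor of basal epithelia, was found at 136 to 355 CPM in the members, 264 to 368 CPM in the non-cycling basal cells and 63.6 to 99.8 CPM in the cycling cells with superficial markers. All 6 member values of Trp63 lay above all superficial-marker values, the lowest of them, in healthy 2, from 2 UMIs. Upk3a, a uroplakin, was found at 656, 340.4, 414, 316, 912 and 197 CPM in the members and at 4426 to 7440.1 CPM in the superficial-marker cells. Itgb1, the shared beta chain of many integrins, was found at 85.5 to 183 CPM in the members and did not set them apart from non-cycling basal cells (165 to 269 CPM).

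The genes of mitosis are known to be switched on together in G2 through promoters that hold CCAAT boxes and a cell cycle homology region, a site read as TTTGAA or TTCGAA. The 250 bases before the start of 5 genes follow, from RefSeq (build GRCm38.p6), 5′ to 3′ on the strand of the gene, so that these letters can be seen in the genes that chose the members and in Cdc20, the activator of the anaphase-promoting complex. Capitals mark TTTGAA or TTCGAA, and likewise the CCAAT box, on either strand. CCAAT and its complement overlap once, in Ube2c.
Top2a, chr11:99024190-99024439, minus strand: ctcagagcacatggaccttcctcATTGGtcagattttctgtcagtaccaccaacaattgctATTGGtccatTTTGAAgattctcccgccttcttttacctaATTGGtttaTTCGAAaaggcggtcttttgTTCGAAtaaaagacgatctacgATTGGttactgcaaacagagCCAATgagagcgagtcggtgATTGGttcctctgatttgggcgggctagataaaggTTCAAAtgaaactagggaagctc
Ube2c, chr2:164769679-164769928, plus strand: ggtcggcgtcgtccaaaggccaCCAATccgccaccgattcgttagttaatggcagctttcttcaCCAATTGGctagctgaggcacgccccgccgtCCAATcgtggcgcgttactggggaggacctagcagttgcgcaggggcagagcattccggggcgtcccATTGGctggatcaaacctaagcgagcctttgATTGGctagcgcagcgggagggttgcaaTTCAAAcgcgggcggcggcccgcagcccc
Mki67, chr7:135716380-135716629, minus strand: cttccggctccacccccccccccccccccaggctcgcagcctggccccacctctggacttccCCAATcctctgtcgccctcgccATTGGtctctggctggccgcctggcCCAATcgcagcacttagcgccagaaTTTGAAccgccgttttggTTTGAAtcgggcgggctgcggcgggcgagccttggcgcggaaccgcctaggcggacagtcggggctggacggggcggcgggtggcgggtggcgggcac
Birc5, chr11:117848987-117849236, plus strand: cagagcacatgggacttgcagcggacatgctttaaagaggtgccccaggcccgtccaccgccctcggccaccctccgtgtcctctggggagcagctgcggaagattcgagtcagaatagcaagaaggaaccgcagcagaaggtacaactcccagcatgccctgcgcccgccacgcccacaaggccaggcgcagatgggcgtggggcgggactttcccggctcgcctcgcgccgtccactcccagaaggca
Cdc20, chr4:118437344-118437593, minus strand: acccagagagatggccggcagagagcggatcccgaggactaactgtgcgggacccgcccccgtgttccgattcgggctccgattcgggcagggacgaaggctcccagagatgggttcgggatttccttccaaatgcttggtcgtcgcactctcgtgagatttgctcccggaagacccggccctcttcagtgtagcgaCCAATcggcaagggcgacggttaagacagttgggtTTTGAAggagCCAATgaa

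Of these 5 windows, that of Birc5 held none of the letters. TTTGAA or TTCGAA stood in 23 of the 51 promoters of the G2/M list (46 of its 54 genes matched, some with several starts), or 45.1%, against 17.1% of all 32851 promoters of the table and 6 of 34 promoters (17.6%) of the S phase list. CCAAT stood in 74.5% of the G2/M promoters, 67.6% of the S promoters and 33.8% of all promoters. A match is only a run of letters and does not show that a factor binds there.

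In both acute libraries a larger share of the basal cells was cycling than in the other 4. The cycling share of basal-gate cells was 7.18% in healthy 1 (13 of 181 cells, 95% Wilson interval 4.25% to 11.9%) and 0.915% in healthy 2 (4 of 437, 0.357% to 2.33%). It was 53.4% in acute 1 (187 of 350, 48.2% to 58.6%) and 17.7% in acute 2 (41 of 231, 13.4% to 23.2%). In chronic 1 it was 14.1% (10 of 71, 7.83% to 24.0%) and in chronic 2 6.90% (4 of 58, 2.71% to 16.4%). The chronic libraries overlapped the healthy ones. The means were 35.6% ± 25.2 (SD, n = 2) in acute, 10.5% ± 5.08 in chronic and 4.05% ± 4.43 in healthy mice. The difference between acute and healthy was 31.5 points (exact two-sided permutation test, p = 0.3333, the smallest that 2 against 2 libraries can give), that between acute and chronic 25.1 points (exact p = 0.3333) and that between chronic and healthy 6.44 points (exact p = 0.667). Acute against the other 4 libraries gave 28.3 points (exact permutation p = 0.0667, again the smallest possible). Single libraries moved these values: acute minus healthy was 13.7 points without acute 1 and 49.4 without acute 2, acute minus chronic 7.26 points without acute 1 and 42.9 without acute 2, and chronic minus healthy 2.85 points without chronic 1, 10.04 without chronic 2 and 3.31 without healthy 2. Chronic minus healthy was also 3.54 points with a proliferation sum of at least 5 and 12.1 points with a basal gate of at least 4 UMIs.

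**Figure D1:**
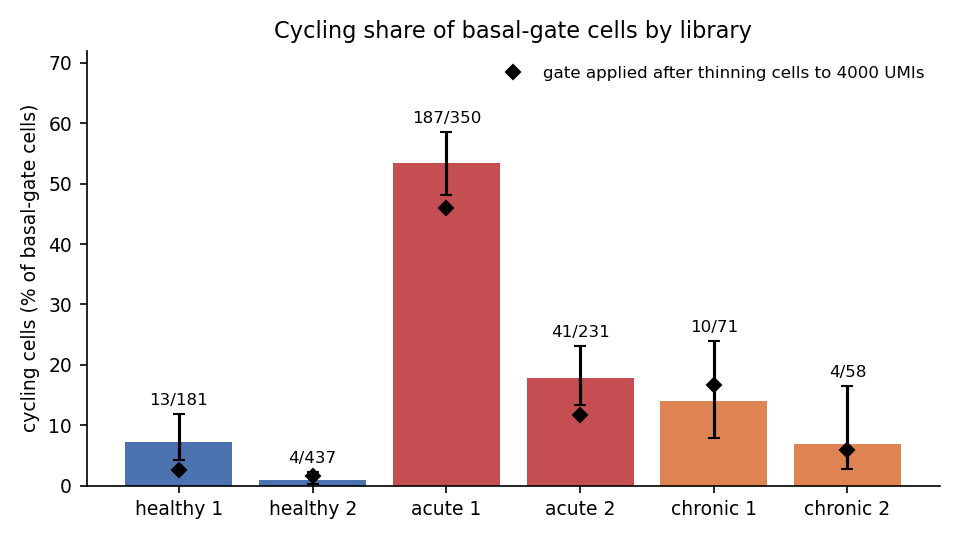
Cycling cells as a percentage of all basal-gate cells (y axis) in the 6 libraries (x axis), with 95% Wilson intervals and the number of cells above each bar. Diamonds give the share when the gate was applied after every cell had been thinned to 4000 UMIs; in both forms acute 1, at 53.4% and 46.0%, lies above every other library.

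Depth per cell entered this gate, since a deeper cell reaches 3 UMIs more easily. With every cell thinned to 4000 UMIs before the gate, the shares were 2.63%, 1.66%, 46.0%, 11.8%, 16.7% and 5.88%, and acute 2 then fell below chronic 1. Basal-gate cells made up 3.25%, 6.19%, 6.08%, 3.79%, 0.757% and 1.22% of the urothelial cells, a lower share in both chronic libraries than in the other 4. Among cycling urothelial cells 17.1%, 23.5%, 15.3%, 9.60%, 4.52% and 2.35% were basal by this rule. As a share of all urothelial-gate cells, the cycling basal cells were 0.233%, 0.0567%, 3.25%, 0.672%, 0.107% and 0.0838%, and the chronic mean was then below the healthy mean by 0.0497 points.

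Cycling and non-cycling basal cells of the same libraries differed first of all by the cell cycle, as the rule demands. Of 42 measured G2/M genes outside the gate, 42 were higher in the cycling cells (median of the log2 differences 3.96), and all 19 measured S phase genes were higher (median 1.14). These are descriptions without a test. Prc1, which bundles the microtubules of the central spindle, was found at 328, 340.4, 175, 306, 143 and 197 CPM in the cycling cells and at 0 to 6.21 CPM in the non-cycling ones. Ccna2 (cyclin A) was found at 28.5 to 239 CPM against 0 to 4.05, and Cdkn3, a phosphatase of cyclin-dependent kinases, at 57.0 to 186 CPM against 0 to 4.05. Racgap1, a subunit of centralspindlin, was at 47.6 to 293 CPM in 5 libraries and at 0 in chronic 2, against at most 2.70 CPM. Cdkn2c, an inhibitor of Cdk4 and Cdk6 known to peak late in the cycle, stood at 79.8, 136, 54.5, 57.8, 28.5 and 39.4 CPM against 1.24 to 11.5.

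Outside the cell cycle the states differed less. By edgeR's quasi-likelihood test over 4 libraries with the library as a block, 596 of 6503 genes passed an adjusted p of 0.05 (9.17%), 366 higher (5.63%) and 230 lower (3.54%) in the cycling cells, and cell cycle genes are among them. The median over all genes was -0.05. DESeq2 called 295, and edgeR called 224 without acute 1 and 360 without acute 2. In simulated data of this comparison, 60% of genes changed 2-fold and 90% of those changed 4-fold were recovered.

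Some targets of p53 were higher in the cycling basal cells, but their summed level was so in acute 1, acute 2 and chronic 1 only, as given with the conditions. In chronic 2 the sums were too close to give a direction. Of 15 measured targets 6 rose and none fell, beside 5.63% and 3.54% of all genes, with a list median of 0.58. Ccng1 (cyclin G1) was found at 62.0, 0, 736, 544, 428 and 434 CPM in the cycling and at 88.26, 94.996, 423, 130.1, 187 and 385 CPM in the non-cycling cells. It was higher in the cycling cells of acute 1, acute 2 and chronic 1. The higher value in chronic 2 and the lower one in healthy 1 differ by a few UMIs only, and the 0 of healthy 2 gives no direction. The fitted difference was 1.10 ± 0.19 (log2, SE; edgeR adjusted p = 6.9e-05). Cdkn1a, the cyclin-dependent kinase inhibitor that is the best known p53 target, was found at 665, 477, 2678, 1923, 2964 and 1065 CPM against 714, 378, 1778, 702, 1196 and 1358. Its difference was 0.78 ± 0.14 (adjusted p = 0.00013). Ei24 rose by 0.70 ± 0.15, Sesn2, a stress-induced inhibitor of growth signaling, by 1.05 ± 0.32, and the death genes Pmaip1 (Noxa) and Bax by 0.60 ± 0.18 and 0.50 ± 0.16. With DESeq2 3 of the 15 were called (Ccng1, Cdkn1a and Ei24), without the block none was, and without acute 1 2 of 12 were.

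**Figure D2:**
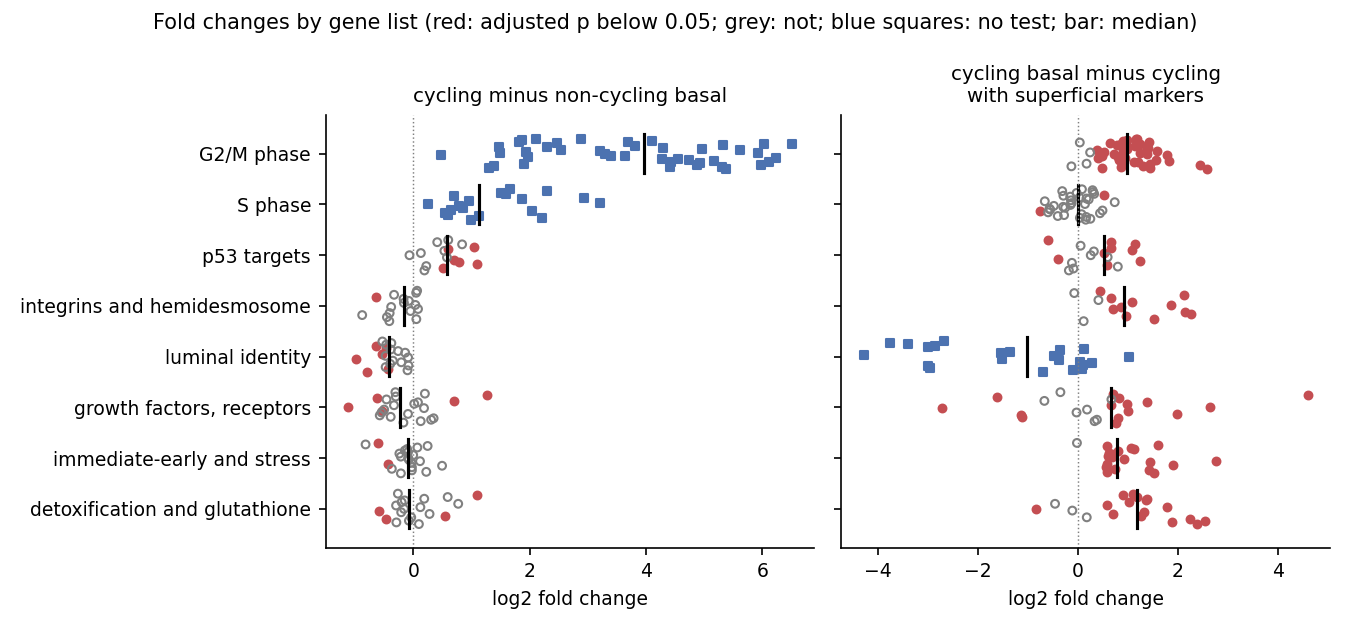
Log2 fold changes of single genes (points; x axis) in 8 gene lists (y axis), without the gate genes, for cycling minus non-cycling basal cells (left) and cycling basal cells minus cycling cells with superficial markers (right). Red points passed an edgeR adjusted p of 0.05, grey circles did not, blue squares stand for lists given without a test, and black bars are the list medians; the medians of the p53 targets lie to the right of 0 in both panels, at 0.58 and 0.51.

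Some luminal genes were lower in the cycling state. Of 20 measured luminal genes outside the gate, 6 fell and none rose, beside 3.54% and 5.63% of all genes, with a median of -0.42. With DESeq2 or without acute 1 2 luminal genes were called lower, and without the block none was. Among all genes outside the cell cycle lists with at least 50 CPM, the largest falls were in Il33, an alarmin of epithelial barriers, Procr (the protein C receptor), Sprr2a3, a small proline-rich protein of the cell envelope, Gsdmc2, a gasdermin, and Pllp (plasmolipin). Il33 was found at 17.7, 0, 122, 64.6, 85.5 and 118 CPM in the cycling cells and at 134, 174, 390.4, 203, 341 and 281 CPM in the non-cycling cells. In the 5 libraries other than healthy 2, every cycling value lay below every non-cycling one, while the 0 of healthy 2 allows up to 204 CPM and gives no direction. The fitted difference was -1.78 ± 0.19 (adjusted p = 1.7e-09). Gsdmc2 stood at 301, 477, 365, 217, 257 and 394 CPM against 1164, 1232, 874, 509, 821 and 766, lower in 6 of 6 libraries, with a difference of -1.47 ± 0.15 (adjusted p = 4.4e-10). Sprr2a3 differed by -1.53 ± 0.17, Procr by -1.56 ± 0.27 and Pllp by -1.34 ± 0.27. Without the block none of these 3 was called, without acute 1 neither Procr nor Pllp was, and DESeq2 did not call Pllp (adjusted p = 0.053).

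Of the basal identity genes outside the gate, 1 of 16 rose and 4 fell, beside 5.63% and 3.54% of all genes. Ly6a (Sca-1) rose by 0.42 ± 0.13 (adjusted p = 0.034, not called by DESeq2). Igfbp2, which binds insulin-like growth factors, fell by 0.83 ± 0.11 on the log2 scale, Trf (transferrin) by 0.71 ± 0.13, Thbs1 (thrombospondin) by 0.48 ± 0.14 and Ly6d by 0.43 ± 0.10. Igfbp2 was at 815, 1157, 797, 1264, 2537 and 513 CPM in the cycling cells and at 1872, 2852, 1277, 2255, 3295 and 1666 CPM in the non-cycling cells, lower in every library.

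Of 22 growth factor ligands and receptors, which carry signals to and from these cells, 2 rose and 3 fell (median -0.24), beside 5.63% higher and 3.54% lower over all genes. Wnt10a, a Wnt ligand, rose by 1.26 ± 0.29 (adjusted p = 0.002) and the receptor Notch1 by 0.70 ± 0.16 (adjusted p = 0.0017). Outside the acute libraries Wnt10a had at most 3 UMIs in the cycling cells. Notch1 was at 159.5, 204, 865, 547, 599 and 355 CPM against 186, 191, 549.8, 239, 298 and 550.1, so that healthy 1 and chronic 2 ran against the rise. Hbegf, a ligand of the epidermal growth factor receptor, fell by 0.54 ± 0.12, Shh, through which basal cells are known to signal to the stroma, by 0.62 ± 0.17 and Insr (the insulin receptor) by 1.13 ± 0.36. Shh stood at 142, 0, 128, 143, 171 and 118 CPM in the cycling and at 195 to 277 CPM in the non-cycling cells. With DESeq2 only Hbegf of these 5 was called.

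Of 11 measured genes of the G1 list 1 fell and 3 rose, Cdk4, Cdkn1a and Cdkn2c, beside 3.54% lower and 5.63% higher over all genes. Ccnd2 (cyclin D2) fell by 0.80 ± 0.15 (adjusted p = 0.00013), and its partner kinase Cdk4 rose by 0.55 ± 0.15 (adjusted p = 0.014, 0.085 by DESeq2). H2afx, a histone that is phosphorylated at DNA breaks and is also known to follow the histone supply of dividing cells, was at 174 to 1089 CPM in the cycling cells against 10.1 to 28.8 CPM (3.74 ± 0.22, log2).

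The adhesion, stress and detoxification lists are given beside the 5.63% of all genes that were higher and the 3.54% that were lower between the states. Of 16 integrin and hemidesmosome genes 5 had a fold change above 0 and only Lama5 was called (-0.63 ± 0.20, adjusted p = 0.038, not by DESeq2). Of 21 immediate-early and stress genes 5 were above 0 as well, none rose, and Fos fell by 0.44 ± 0.13 and Zfp36 by 0.61 ± 0.16. Of 19 detoxification genes, Txnrd1 (thioredoxin reductase) rose by 1.09 ± 0.18 (adjusted p = 2.1e-05) and Gclm, of glutathione synthesis, by 0.55 ± 0.16, while Gsta4 and Cbr2 fell by 0.58 ± 0.11 and 0.46 ± 0.14. Txnrd1 was at 177, 0, 199, 153, 257 and 158 CPM in the cycling cells against 62.4 to 142 CPM. No gene of the 5 measured interferon genes was called.

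Members and the other cycling urothelial cells passed the same proliferation gate, and their S and G2/M RNA is set side by side here. The 4 gate genes belong to the G2/M list, so all these classes were picked by G2/M RNA. Cells with fewer than 3 UMIs of these genes were not taken, and leaving the genes out of the share does not undo this. What the gate adds to the differences was not tested. The share of S phase UMIs among S and G2/M UMIs, with the 4 gate genes left out, was 7.62%, 11.3%, 16.03%, 17.8%, 25.7% and 21.5% in the members. In the cycling cells with superficial markers it was 18.2%, 18.6%, 30.1%, 28.1%, 30.2% and 32.5%, higher than in the members of 6 of 6 libraries. In the 4 libraries with at least 10 members the difference was -9.87 points (SD 3.96, exact two-sided sign-flip permutation test, p = 0.125, the smallest possible). With all 6 it was -9.62 points (exact sign-flip permutation p = 0.0312, also the smallest possible). Against the other cycling urothelial cells (12.8%, 12.9%, 21.6%, 17.9%, 21.4% and 24.9%) the difference was -1.60 points, lower in 3 of 4 libraries (exact sign-flip p = 0.375), and the groups overlapped. It was -0.28 points without acute 1, -0.42 without healthy 1 and -3.58 without chronic 1. With cells thinned to 4000 UMIs it was -3.60, but chronic 1 then had 9 members and was left out here too. The thinned shares of chronic 1 were 25.2% in the members and 20.9% in the other cycling cells.

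**Figure D3:**
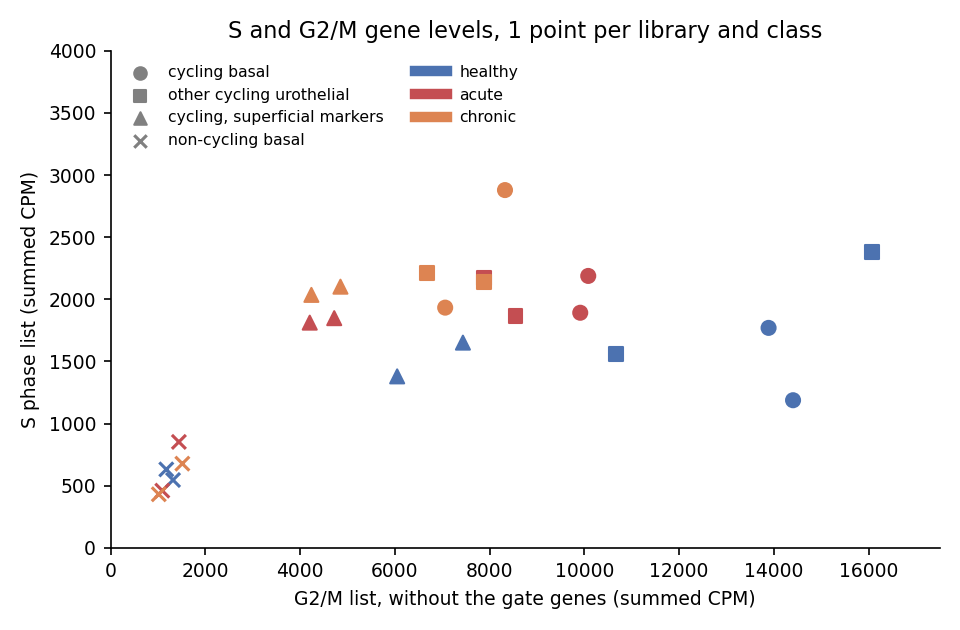
Summed CPM of the S phase list (y axis) against summed CPM of the G2/M list without the gate genes (x axis), 1 point per library and class, with the class given by the symbol and the condition by the colour. Cycling basal cells (circles) lie at 7061 to 14404 CPM of G2/M genes and cycling cells with superficial markers (triangles) at 4202 to 7435 CPM, and in both classes the healthy libraries lie to the right of the injured ones.

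The G2/M genes behind this share were higher in the members of 6 of 6 libraries, and the S genes in those of 4. The G2/M genes summed to 14404, 13887, 9912, 10080, 8323 and 7061 CPM in the members and to 7435, 6047, 4202, 4719, 4850 and 4237 CPM in the superficial-marker cells, whereas the S genes summed to 1188 to 2879 CPM and 1380 to 2101 CPM. Per cell, at 4000 UMIs each, the median was 35, 33.5, 23, 24, 26 and 18.5 G2/M UMIs in the members and 16.5, 11.5, 10, 10, 12 and 9 in the superficial-marker cells. Cells with superficial markers were the deeper ones, with medians of 12057 to 22930.5 UMIs per cell, so that 3 proliferation UMIs are a smaller part of their RNA. The part of this in the difference was not tested. With a proliferation sum of at least 5 in both classes the S share differed by -10.7 points. Chronic 1 then had 6 members and was left out, so this value covers 3 libraries. It cannot be set directly against the difference over 4 libraries.

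Of 47 measured G2/M genes outside the gate, 43 were higher in the members than in the superficial-marker cells and none was lower (median 0.97), while over all 7427 genes 35.5% were called, 17.3% higher and 18.2% lower, with a median of -0.02 (810 genes called without acute 1). Of 34 S phase genes 1 rose (Rrm2, of ribonucleotide reductase, 0.52 ± 0.18) and 1 fell (Gins2, of the replicative helicase, -0.76 ± 0.24). Anln (anillin), which organises the contractile ring, was at 213, 68.1, 111, 61.2, 57.0 and 0 CPM in the members and at 45.4, 29.4, 13.4, 12.3, 19.7 and 13.8 CPM in the superficial-marker cells (2.58 ± 0.24, adjusted p = 1.2e-25). Cdc20 was at 204, 477, 285, 224, 143 and 78.9 CPM against 136, 68.5, 32.1, 34.0, 52.1 and 30.6 (2.45 ± 0.18), with the member value above its counterpart in each library. Hmgb2, a chromatin protein of late cycle, was at 884 to 2774 CPM against 399 to 944 (1.59 ± 0.13). Of 19 cytokinesis genes 15 rose, Ect2, which starts furrowing, by 1.79 ± 0.27, and 1 fell, Chmp4b of the abscission machinery, by 0.45 ± 0.15. With DESeq2, 32 of 51 G2/M genes (gate genes included) and 10 of 19 cytokinesis genes were called higher. Without acute 1, 24 of 42 measured G2/M genes and 8 of 17 cytokinesis genes were. The members are the shallower cells, so the same 3 proliferation UMIs ask for a larger part of their RNA. How much of the G2/M and cytokinesis calls follows from this rule was not tested.

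D-type cyclins, which answer to growth signals in G1, went separate ways between these classes. Ccnd1 was higher in the members (0.79 ± 0.18, adjusted p = 6e-05) and Ccnd3 lower (-1.50 ± 0.20, adjusted p = 5.3e-12). Ccnd2 was also lower (-0.73 ± 0.16), but was not called by DESeq2 (adjusted p = 0.088). Ccne1 (cyclin E) and E2f1, which open S phase, were lower by -1.20 ± 0.41 and -1.18 ± 0.34, and neither was called by DESeq2.

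Most measured genes of adhesion to the basement membrane were higher in the members than in cycling cells with superficial markers. Of 14 integrin and hemidesmosome genes 11 were higher and none was lower, beside 17.3% and 18.2% of all genes, with a median of 0.91 (7 of 14 with DESeq2, 8 of 13 without acute 1). Members were chosen partly by Col17a1, itself a hemidesmosomal gene, here and against the other cycling cells. What this choice adds to the values of these genes was not tested. The list of 20 genes summed to 1529 to 2473 CPM in the members and to 727 to 1143 CPM in the superficial-marker cells, but in each of the 6 libraries the non-cycling basal cells had a higher sum than the members (1584 to 3088 CPM). Itga6, which pairs with Itgb4 in hemidesmosomes, was at 469.8, 136, 308, 187, 143 and 118 CPM in the members and at 122, 29.4, 54.1, 47.4, 31.4 and 38.6 CPM in the superficial-marker cells (2.15 ± 0.17, adjusted p = 3.1e-34). Itgb4 was at 204, 204, 241, 126, 114 and 78.9 CPM against 29.4 to 56.4 (1.87 ± 0.19), and for both genes every member value but that of Itga6 in chronic 2 lay above every superficial-marker value. Itga3, a laminin receptor, differed by 2.27 ± 0.23 and Lamb3, a chain of that laminin, by 2.11 ± 0.25. Itgb1 differed by 0.85 ± 0.18 (adjusted p = 1.1e-05, 0.05 by DESeq2). In healthy 1 the Itgb1 levels of 151 and 141 CPM lay close together.

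**Figure D4:**
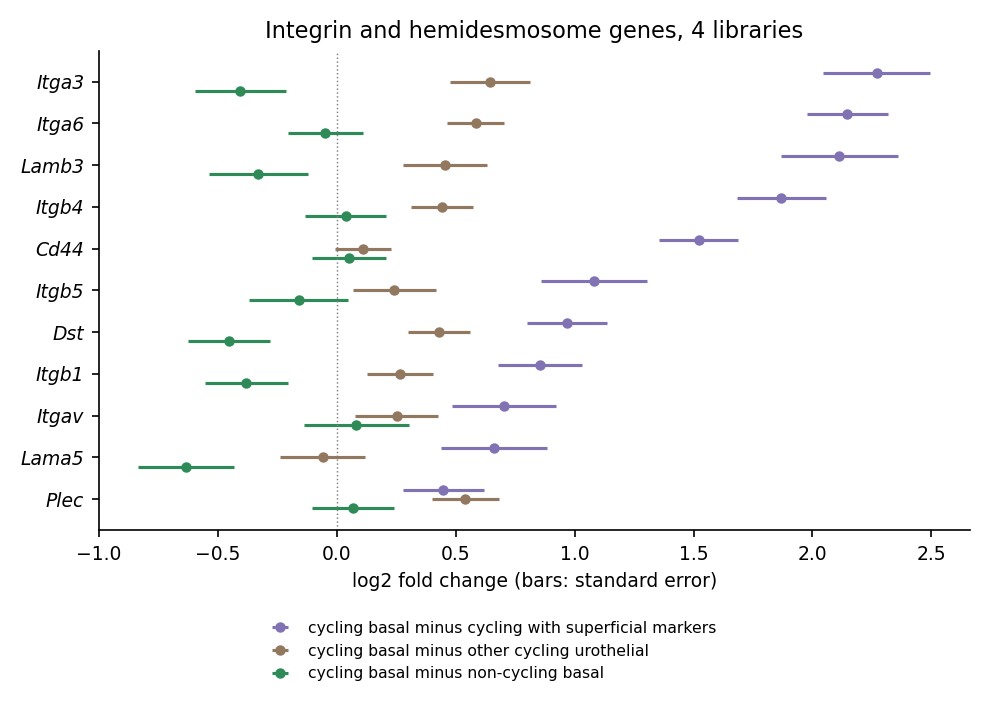
Log2 fold changes (x axis, points) with standard errors (bars) of 11 integrin and hemidesmosome genes (y axis) in 3 comparisons over 4 libraries. For all genes shown but Plec, the values fall from the superficial-marker cells (Itga3 2.27) over the other cycling cells (Itga3 0.64) to the non-cycling basal cells (Itga3 -0.41) as the comparison class.

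Of 22 measured growth factor ligands and receptors 11 were higher in the members, beside 17.3% of all genes, and 4 were lower, which is at the 18.2% of all genes. Wnt10a was at 26.6, 0, 74.2, 78.1, 28.5 and 0 CPM in the members and at 0 to 5.39 CPM in the superficial-marker cells (4.59 ± 0.35, adjusted p = 5.8e-38). The 26.6 CPM of healthy 1 is 3 UMIs and the 28.5 CPM of chronic 1 is 1 UMI. In healthy 2 and chronic 2 a 0 allows up to 204 and 118 CPM, so the rise rests mostly on the acute libraries. Fgfr2, a receptor of fibroblast growth factors from the stroma, was at 124, 68.1, 44.5, 74.7, 28.5 and 158 CPM against 31.8, 0, 11.3, 14.3, 10.8 and 8.74 (1.98 ± 0.28, adjusted p = 2.6e-11). In healthy 2 and chronic 1 the member value is 1 UMI and gives no direction, and in the other 4 libraries it was the higher one. In the non-cycling basal cells Fgfr2 stood at 54.1 to 126 CPM, overlapping the members. Il6ra, the interleukin 6 receptor, differed by 2.64 ± 0.31, Notch1 by 1.38 ± 0.16, and Met, the receptor of hepatocyte growth factor, by 0.99 ± 0.25. Lower were Il1rn, the interleukin 1 receptor antagonist (-2.72 ± 0.35), Tgfa (-1.62 ± 0.25), Erbb3 (-1.14 ± 0.24) and Erbb2 (-1.11 ± 0.27). Ligands of the ErbB family thus stood on both sides, with Tgfa lower and Hbegf (1.00 ± 0.14) and Areg (0.75 ± 0.15) higher.

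Most single genes of the immediate-early and detoxification lists were higher in the members. Beside the 17.3% of all genes that were higher and the 18.2% that were lower, of 20 immediate-early and stress genes 19 rose and none fell (median 0.77), led by Fosl1, a partner of Jun, at 222, 68.1, 290.4, 146, 371 and 237 CPM against 18.0 to 95.3 (2.77 ± 0.19). With DESeq2 13 of the 20 were called, and without acute 1 12 of 17. These genes are known to respond to tissue dissociation as well. Of 19 detoxification genes 15 rose and 1 fell: Aldh3a1, an aldehyde dehydrogenase, was at 159.5, 545, 919, 612, 1283 and 552 CPM against 48.9 to 282 (2.55 ± 0.16), and Aldh1a1 differed by 2.38 ± 0.22, whereas Gstm1, a glutathione transferase, was lower by -0.84 ± 0.11. The sum over the detoxification list did not follow the count: it was 20289, 18788, 24177, 20664, 38338 and 17080 CPM in the members and 28439, 20001, 24008, 22236, 32893 and 27230 CPM in the superficial-marker cells, lower in the members of 4 of 6 libraries. Aldh3a1 is also in the basal list, whose direction the gates of both classes set. Aldehyde dehydrogenases are known to detoxify metabolites of CPP.

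Of 17 measured p53 targets 7 rose, beside 17.3% of all genes, among them Cdkn1a (1.24 ± 0.13), Plk2 (1.09 ± 0.20) and Tnfrsf10b, a death receptor (1.14 ± 0.28), and 2 fell, Zmat3 (-0.59 ± 0.24) and Ei24 (-0.40 ± 0.15), a smaller share than the 18.2% of all genes and neither called by DESeq2. Among genes outside the cell cycle lists, the largest rises with at least 50 CPM were in Upk3bl (3.54 ± 0.25), Ly6a (3.25 ± 0.15), Tubb6, a tubulin (3.11 ± 0.25), Trf (3.07 ± 0.17) and the carboxylesterase Ces2e (3.02 ± 0.24). The largest falls were in Gm13398 (-4.71 ± 0.32), the homeodomain gene Hopx (-4.38 ± 0.37), Psca (-4.29 ± 0.14), Fam25c (-4.24 ± 0.15) and Sprr2a3 (-4.06 ± 0.15). Ly6a and Trf belong to the basal and Psca to the luminal list, whose direction the gates of both classes set.

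Against the other cycling urothelial cells, which met neither the basal nor the superficial rule, of 5062 genes 250 were called (4.94%), 134 higher (2.65%) and 116 lower (2.29%). DESeq2 called 43, the fit without the library block 4, and edgeR 29 without acute 1 and 65 without acute 2. The other cycling cells carried macrophage RNA in some libraries: the 12 markers summed to 12055 CPM in healthy 2, whose 5 cells held 2 doublet calls, and to 1425 CPM in chronic 1, against 113 to 237 CPM in the other 4 libraries. Cd74, the 1 macrophage marker measured in this fit, was lower in the members (-1.73 ± 0.35), and the part of such RNA in the other values was not tested. Of 13 integrin and hemidesmosome genes 5 were higher in the members: Itga3 (0.64 ± 0.17), Itga6 (0.58 ± 0.12), Plec (0.54 ± 0.14), Itgb4 (0.44 ± 0.13) and Dst (0.43 ± 0.13), while DESeq2 called Itga6 alone and edgeR none without acute 1. The value of Dst turned to -0.02 without acute 1. Of 44 G2/M genes outside the gate 6 were higher, Cdc20 by 1.00 ± 0.14, and DESeq2, or edgeR without acute 1, called none. Fermt1 (kindlin 1), which activates integrins, was at 195, 136, 216, 126, 85.5 and 78.9 CPM in the members and at 112, 92.7, 115, 79.5, 49.6 and 107 CPM in the other cycling cells, higher in 5 of 6 libraries (0.84 ± 0.14, adjusted p = 3e-05, 0.024 by DESeq2). Tubb6, Ctsl (cathepsin L), Ptpre and Rdx (radixin) were higher by 0.93 ± 0.17, 0.96 ± 0.20, 0.93 ± 0.22 and 0.83 ± 0.18. None of these 4 was called without acute 1, without the block or with cells thinned to 4000 UMIs, and DESeq2 did not call Tubb6 (adjusted p = 0.15) and gave no adjusted p for the other 3. Lower were Sprr2a3 (-1.97 ± 0.12), Upk3a (-1.56 ± 0.13), Wfdc15b (-1.39 ± 0.15), Rhov (-1.34 ± 0.20) and Uchl1 (-1.29 ± 0.20), and DESeq2 called each of these 5.

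Between conditions, p53 target RNA was higher in the injured libraries in all 4 classes of urothelial cells, the cycling basal cells among them. The 20 genes of the list summed to 3661 and 3268 CPM in the healthy members, 9213 and 7675 CPM in the acute members and 7810 and 6706 CPM in the chronic members. In the non-cycling basal cells the sums were 4121, 4091, 6466, 4898, 4640 and 6540 CPM. They were 3502, 3246, 7900, 6304, 6691 and 7495 CPM in the other cycling cells and 3121, 2847, 5824, 4634, 4492 and 4733 CPM in the cycling cells with superficial markers. The injured libraries lay above both healthy ones in every class. In acute 1, acute 2 and chronic 1 the cycling basal cells had a higher sum than the non-cycling ones, while in healthy 1 the non-cycling cells had. In healthy 2 the non-cycling sum was also the higher one. There 1 UMI of the 4 members is worth 68.1 CPM, and their sum carried RNA of other cells. In chronic 2 the sums of 6706 and 6540 CPM lie close, where 1 UMI of its 4 members is worth 39.4 CPM. They give no direction there. Of 16 measured targets 13 were higher in both acute than in both healthy libraries and none was lower, against 22.1% of all genes that were higher without overlap and 17.2% that were lower. In chronic mice 11 of 16 were higher and none was lower, against 16.8% and 14.1%. These counts take the values of healthy 2 as they stand, where some targets had very few UMIs. Bax, at 2 UMIs there, and Trp53inp1, with no UMI there, are in both counts. Both contrasts share the healthy libraries.

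Among single targets, Bax was at 133 and 136 CPM in healthy, 560.2 and 476 CPM in acute and 314 and 631 CPM in chronic members. The 136 CPM of healthy 2 is 2 UMIs, under the 204 CPM that 3 counts make in its 4 members, so that the direction rests on healthy 1. Trp53inp1, a stress-induced cofactor of p53, was at 35.5 and 0, 400.1 and 272, and 57.0 and 473 CPM, and the 57.0 CPM of chronic 1 lies below the 204 CPM that the 0 of healthy 2 allows. Ccng1 and Cdkn1a, given above, also lay higher in all 4 injured libraries. The fitted differences between acute and healthy were 3.47 ± 0.47 for Ccng1 (adjusted p = 0.063), 3.35 ± 0.55 for Trp53inp1 (0.13), 2.66 ± 0.64 for Mdm2 (0.44), 2.07 ± 0.40 for Bax (0.18) and 1.90 ± 0.37 for Cdkn1a (0.18). None passed, nor did any gene: of 5299 genes tested 0 were called between acute and healthy (0%), with 489 at an unadjusted p under 0.05 and 0 by DESeq2. Between chronic and healthy 0 were called (0%; 670 unadjusted, 6 by DESeq2), and between acute and chronic 0 (0%; 501 unadjusted, 0 by DESeq2). Only healthy 1 and chronic 1 stood for their conditions in these fits. In simulated data of the acute contrast, 0% of 2-fold and 46% of 4-fold changes were recovered.

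**Figure D5:**
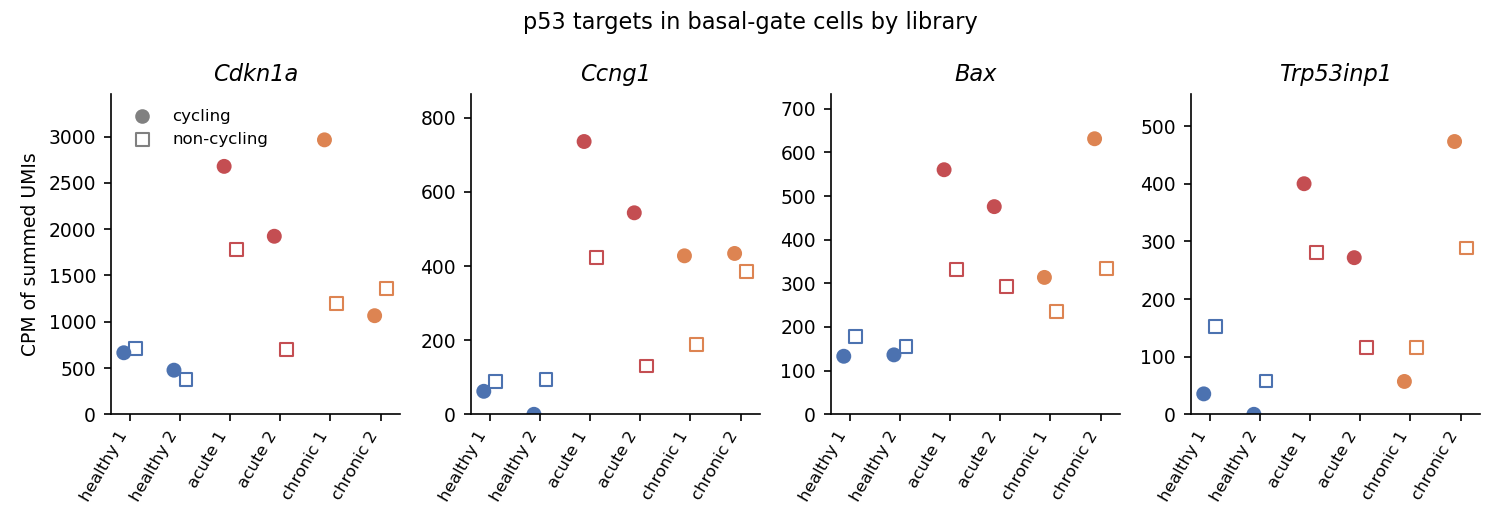
CPM (y axes, linear from 0) of 4 p53 targets in the cycling (filled circles) and non-cycling (open squares) basal-gate cells of the 6 libraries (x axes), coloured by condition. For Bax, the cycling cells of the 4 injured libraries lie at 314 to 631 CPM against 133 and 136 CPM in the healthy ones, of which the 136 CPM is 2 UMIs.

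The S and G2/M RNA differed between conditions too, again among cells picked by the G2/M genes of the gate. The S share was 9.46% ± 2.61 (SD, n = 2) in the healthy members and 20.3% ± 4.28 (n = 4) in the injured members, a difference of 10.8 points without overlap (exact two-sided permutation test, p = 0.0667, the smallest possible for 4 against 2), a comparison added after the values were seen. The G2/M sum differed by -5301 CPM between injured and healthy members (exact permutation p = 0.0667). The same order was found in cycling cells with superficial markers (-2239 CPM, exact permutation p = 0.0667) and in the other cycling cells (-5627 CPM, exact permutation p = 0.0667), so it was not seen in basal cells alone. S genes summed to 1188 and 1770 CPM in healthy and 1892 to 2879 CPM in injured members (exact permutation p = 0.133). Hells, a chromatin remodeler of S phase, was at 0 in both healthy sums, where a 0 allows up to 26.6 and 204 CPM, and at 40.4, 71.3, 143 and 197 CPM in the injured ones. Mcm2, of the replicative helicase, was at 8.86, 0, 24.8, 34.0, 57.0 and 78.9 CPM. Its healthy values are 1 UMI and a 0 that allows up to 204 CPM, and they give no direction. Rrm1, of ribonucleotide reductase, was at 115 and 136 CPM in healthy and 57.0 to 105 CPM in injured members. The 136 CPM of healthy 2 lies under the 204 CPM that 3 counts make there, so that the fall rests on healthy 1. Of 24 measured S genes 13 were higher in acute than in healthy libraries without overlap and 2 were lower, and of 46 G2/M genes outside the gate 2 were higher and 18 lower, beside 22.1% higher and 17.2% lower over all genes. These counts and shares take the values of healthy 2 as they stand. The 13 include Hells and Mcm2 and the 2 include Rrm1, for which healthy 2 gives no direction.

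Whether injury changed the 2 states of basal cells unequally was tested by the interaction of state and condition. For acute injury 13 of 8734 genes were called (0.149%), 11 of them with a positive value, where the acute-healthy difference was more positive in the cycling cells, and for chronic injury 1 (0.0114%). This fit had 4 libraries and 1 residual degree of freedom: healthy and chronic were 1 library each, and were assumed to vary like the 2 acute ones. Trp53inp1 (2.96 ± 0.58, adjusted p = 0.0013) and Cdkn1a (1.18 ± 0.27, adjusted p = 0.022) were among the 11, and 17 of 18 measured p53 targets were above 0 (median 1.39, against 0.13 over all genes). Ccnd1 (1.89 ± 0.47, adjusted p = 0.044) was called as well, at 79.8, 136, 298, 129, 85.5 and 237 CPM in the cycling and 209, 176, 246, 74.96, 96.1 and 127 CPM in the non-cycling cells. All these values rest on the 13 members of healthy 1 as the healthy cycling cells. With all 6 libraries 3 genes were called, Trp53inp1 among them (adjusted p = 0.023) but not Cdkn1a (0.76), and DESeq2 called none.

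Other lists did not separate the conditions clearly in the members. Their counts likewise take the values of healthy 2 as they stand. Of 14 integrin and hemidesmosome genes 4 were higher and 2 lower in acute than in healthy libraries without overlap (22.1% and 17.2% over all genes), and 1 was higher and 5 lower in chronic ones (16.8% and 14.1% over all genes), Itga3, Itgb4 and Dst among the 5. Of 20 luminal genes outside the gate 2 were higher and 4 lower in acute, 4 higher and 2 lower in chronic libraries, where Psca reached 1767 and 868 CPM against 186 and 408 CPM in healthy members. Of 17 growth factor ligands and receptors 5 were higher and 2 lower in acute libraries, with Notch1 at 159.5 and 204 CPM in healthy, 865 and 547 CPM in acute and 599 and 355 CPM in chronic members. Notch1 was thus higher in all injured libraries without overlap. In these sums a change of the level per cell and a change of which basal cells were cycling cannot be told apart.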

How the data were processed

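Single-cell RNA sequencing was done by the authors with 3′ tagged UMIs, and reads were aligned and counted with Cell Ranger (build mm10, per the submitters' processing notes). The deposited tables hold raw UMI counts per gene and cell. An incomplete last line of the healthy 1 table was dropped. Genes in all 6 tables were kept, without 112 mitochondrial and ribosomal genes, which left 14338. UMIs were summed per library and class, for sums of at least 10 cells, and tested with edgeR 4.0.16 (TMM, filterByExpr, quasi-likelihood test, Benjamini-Hochberg adjustment over all genes) in R 4.3.3, with the library as a block where classes of the same libraries, and so the same mice, were compared. The design had assumed all 6 libraries, which are given as alternatives chosen after seeing the data. Scrublet (scanpy 1.11.5) doublet calls, the highest scores at 0.8% per 1000 cells, were kept. Standard errors were worked back from the log2 difference and the F statistic of the edgeR test. The tests were checked on simulated data with 200 changed genes. Wilson intervals cover counting error only.

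The members, gene lists and gate were chosen with earlier results of these data known. Genes of the lists and gate could be named, and the 5 largest rises and falls per comparison outside the gate, S and G2/M lists (adjusted p under 0.05, mean of at least 50 CPM, the same direction in every library pair or no overlap between groups). Alternatives were DESeq2 1.42.0, no filter on low counts, each library left out, doublets left out, a proliferation sum of at least 5, a basal gate of at least 4 UMIs, cells thinned to 4000 UMIs, the block left out or added, and non-cycling cells with a sum of 0 or matched on depth. Some results are not reported here.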

Additional observations from a re-analysis of the deposited data

Results flagged for a closer look

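The interaction of state and acute injury had an adjusted p under 0.05 for the genes given here, in a fit with 1 healthy library and 1 residual degree of freedom (edgeR, log2, positive where the difference between acute and healthy libraries was more positive in cycling than in non-cycling basal cells). Positive values were found for Trp53inp1 (2.96), Hs3st1 (2.12), Dcxr (2.06), Ccnd1 (1.89), Sat1, of polyamine breakdown (1.85), 8430408G22Rik (1.74), Aldh3a1 (1.57), the death gene Siva1 (1.38), Cdkn1a (1.18) and Fos (1.14). The linker histone gene H1f0 (-1.53) and Hist1h2bc (-1.75) went the other way. Sat1 was called for chronic injury as well (2.02), which sets chronic 1 alone against healthy 1 alone. That call was lost with no filter on low counts (adjusted p = 0.85), with DESeq2 and with all 6 libraries (0.94). It stood at 328, 817, 1173, 904, 1026 and 631 CPM in the cycling cells and at 1080.2, 895, 1021, 984, 706 and 889 CPM in the non-cycling cells of healthy 1, healthy 2, acute 1, acute 2, chronic 1 and chronic 2, so that its low cycling value in healthy 1 was not repeated in healthy 2. Dcxr was at 70.9 CPM in cycling and 107 CPM in non-cycling cells of healthy 1, but at 408 (6 UMIs) and 134 CPM in healthy 2. 8430408G22Rik was at 97.5 and 277 CPM in healthy 1, but at 953 and 1014 CPM in healthy 2. Fos was at 753 CPM in healthy 1 but at 5242 CPM in healthy 2, whose 4 members also carried NK and T cell RNA. What this RNA adds to Fos was not tested. With all 6 libraries Trp53inp1 (adjusted p = 0.023) and Hist1h2bc (0.0035) were still called, and DESeq2 called none of these genes (adjusted p = 0.9999).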

How the results depend on the processing

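Counts of called genes moved by more than 1.5 times under several settings, and the cause was not tested. Chronic 1 kept 6 members with a proliferation sum of at least 5 and 9 after thinning. The tests across genes under these 2 settings therefore held 3 libraries and also left out chronic 1. For cycling against non-cycling basal cells (596 genes), DESeq2 called 295, cells thinned to 4000 UMIs gave 309, the fit with no replicate block 218, all 6 libraries with DESeq2 285, and leaving out 1 library 224 (without acute 1) to 627, with 360 without acute 2. For members against superficial-marker cells (2637), DESeq2 called 1396, thinning gave 1203, no replicate block 1412, all 6 libraries 1728, the same with DESeq2 1144, and leaving out 1 library 810 (without acute 1) to 2780. For members against other cycling cells (250), a proliferation sum of at least 5 gave 137, DESeq2 43, thinning 81, no replicate block 4, all 6 libraries with DESeq2 49, and leaving out 1 library 29 (without acute 1) to 257, with 65 without acute 2.

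For acute against healthy (0), no filter gave 42, doublets left out 6, a sum of at least 5 4, thinning 16, without chronic 1 19, all 6 libraries 3, with DESeq2 2, with the replicate block 6, and leaving out 1 of the 6 gave 0 to 23 (without chronic 1). For chronic against healthy (0), no filter gave 23, doublets left out 1, DESeq2 6, all 6 libraries with DESeq2 1, with the replicate block 1, and leaving out 1 of the 6 gave 0 to 25 (without chronic 1). For acute against chronic (0), no filter gave 9, doublets left out 1, the replicate block 0, and leaving out 1 of the 6 gave 0 to 28 (without chronic 1). For the acute interaction (13), no filter gave 2, a sum of at least 5 7, DESeq2 0, without chronic 1 4, all 6 libraries 3 and with DESeq2 0. For the chronic interaction (1), no filter and DESeq2 gave 0, all 6 libraries 8 and with DESeq2 0. Between conditions the replicate block could not be fitted between conditions over 4 libraries, where only acute has both numbers, nor could fits that leave a condition without a library.

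The chronic minus healthy cycling share turned to -0.0497 points as a share of all urothelial-gate cells. The S share against superficial-marker cells passed 0.05 with all 6 libraries (-9.62 points). Dst against the other cycling cells ranged from -0.0198 (without acute 1) to 0.4747 when 1 library was left out. For the named genes, 1111 values under alternatives kept direction and side of the threshold, 417 kept direction but no longer passed and 1 reversed. The 4 members each of healthy 2 and chronic 2 limit what can be said of healthy and chronic cycling basal cells.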
